A study of Sus scrofa with 16 samples.

Results

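Gene expression was compared between IR and sham-operated pigs in the scar zone of the left ventricle, the region directly below the site where the left anterior descending (LAD) artery was occluded. The comparison used 8 of the 16 RNA-seq samples of the study, which were chosen by their labels as scar zone samples: 4 from IR pigs (pigs 2, 9, 11 and 14) and 4 from sham-operated pigs (pigs 4, 5, 12 and 13). The other 8 samples came from the border zone of the same pigs. All were White Yorkshire-Landrace farm pigs operated on at 1 month of age, with 2 females and 2 males in each group. IR pigs had 1 h of LAD occlusion below the second diagonal branch followed by reperfusion, and sham-operated pigs had the suture placed but not tightened. Tissue was taken 4 weeks after surgery. Pieces from IR pigs were not pure scar but included heart muscle beside it, and sham-operated pigs gave a piece from the suture site under the same zone name. In bulk RNA of such pieces, more cells of a type and more RNA per cell cannot be told apart.

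After an infarct the heart replaces lost cardiomyocytes with a collagen-rich scar made by activated fibroblasts, while leucocytes clear debris. Surviving cardiomyocytes next to a scar are known to re-express genes of the fetal heart, such as the natriuretic peptides, and to lower genes of fatty acid oxidation and mitochondrial energy supply. The question here was which genes separated IR from sham-operated pigs in this zone beyond the immune and extracellular matrix (ECM) genes, including those that were lower after IR.

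Estimated counts summed to between 15427663 and 36509911 in the IR libraries and between 20725478 and 27088652 in the sham libraries. The 2 male IR libraries were the deepest of the 8, and the 2 female IR libraries were the shallowest. Values are in CPM, which are TMM-scaled counts relative to library size, and 3 counts corresponded to between 0.0711 and 0.206 CPM in these libraries. The 9 cardiomyocyte markers tested summed to between 60864 and 83527 CPM in IR and between 70534 and 98835 CPM in sham samples, and no marker of skeletal muscle was high enough to be tested. The 6 fibroblast markers summed to 7232 CPM in pig 9 and 11834 CPM in pig 11, both male IR pigs, against 2167 and 1466 CPM in the female IR pigs 2 and 14 and between 1564 and 2311 CPM in sham pigs. The 7 leucocyte markers tested summed to between 132 and 289 CPM in IR and between 105 and 208 CPM in sham samples, and the 7 endothelial markers to between 883 and 1210 CPM and between 1070 and 1212 CPM. The scar library of pig 14, a female, held 4.49 CPM of the Y-linked gene *DDX3Y*, where the other 7 female libraries had 0.389 to 1.23 CPM and the 8 male libraries 68.4 to 103 CPM, so values without this library are given below.

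No gene passed the test of IR against sham over all 4 against 4 pigs. Among 14023 genes given to the quasi-likelihood test of edgeR, 0 reached an adjusted p-value of 0.05 or less, and the smallest was 0.414. Unadjusted p-values of 0.05 or less were found for 1572 genes, and 470 of these differed by 2-fold or more, 384 higher and 86 lower in IR. DESeq2 called 37 genes higher and 15 lower at the adjusted threshold, of which 25 and 14 also had no overlap between the groups, and limma on log2(TPM + 1) called 2 and 1. Without pig 14, edgeR again called 0 genes.

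Genes were therefore described by whether their 4 IR values lay entirely above or below their 4 sham values. In CPM, 289 genes were higher in every IR pig than in any sham pig, which is 2.06% of all genes tested, and 387 were lower in every IR pig, 2.76%. Of the higher genes 252 had a symbol, 254 averaged at least 1 CPM and 83 had a fold change of at least 2. The corresponding numbers of the lower genes were 358, 370 and 46, so the lower genes were more numerous but their differences were smaller, with a median log2 fold change of -0.42 against 0.63 for the higher genes. Of the 295 immune genes tested 12 were higher (4.07%) and 1 lower (0.339%), and of the 217 ECM genes 12 (5.53%) and 7 (3.23%). This left 265 higher and 379 lower genes outside both lists. The balance of directions depended on the unit. In TPM, where transcript length also enters the scaling, 479 genes were higher and 88 lower without overlap. The median log2 fold change was 0.03 over the genes tested by edgeR. It was 0.15 by limma on log2(TPM + 1), over the genes that reached a TPM of 1 in 4 samples, so the gene sets differ. In TPM 196 of the 289 higher but 76 of the 387 lower genes stayed without overlap. Without pig 14, which leaves 3 IR values to separate, 914 genes were higher and 872 lower.

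The 12 higher and 12 lower genes with the widest gap between the nearest IR and sham pigs, among symbols of at least 1 CPM outside the immune and ECM lists, came from no single pathway. All 12 higher and 11 of the 12 lower genes were also without overlap in TPM, the exception being *KY*. DESeq2 gave 7 of the higher and 10 of the lower genes an adjusted p-value of at most 0.05, while their edgeR adjusted p-values were 0.414 to 0.438. The genes were chosen by their gap in these same libraries, so the TPM and DESeq2 counts are no independent support. In the values that follow, IR pigs are given in the order 2, 14, 9, 11 and sham pigs in the order 4, 5, 12, 13, females before males. The log2 fold changes are IR minus sham ± SE with n = 4 pigs in each group, the SE being derived from the edgeR test statistic.

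**Figure D1:**
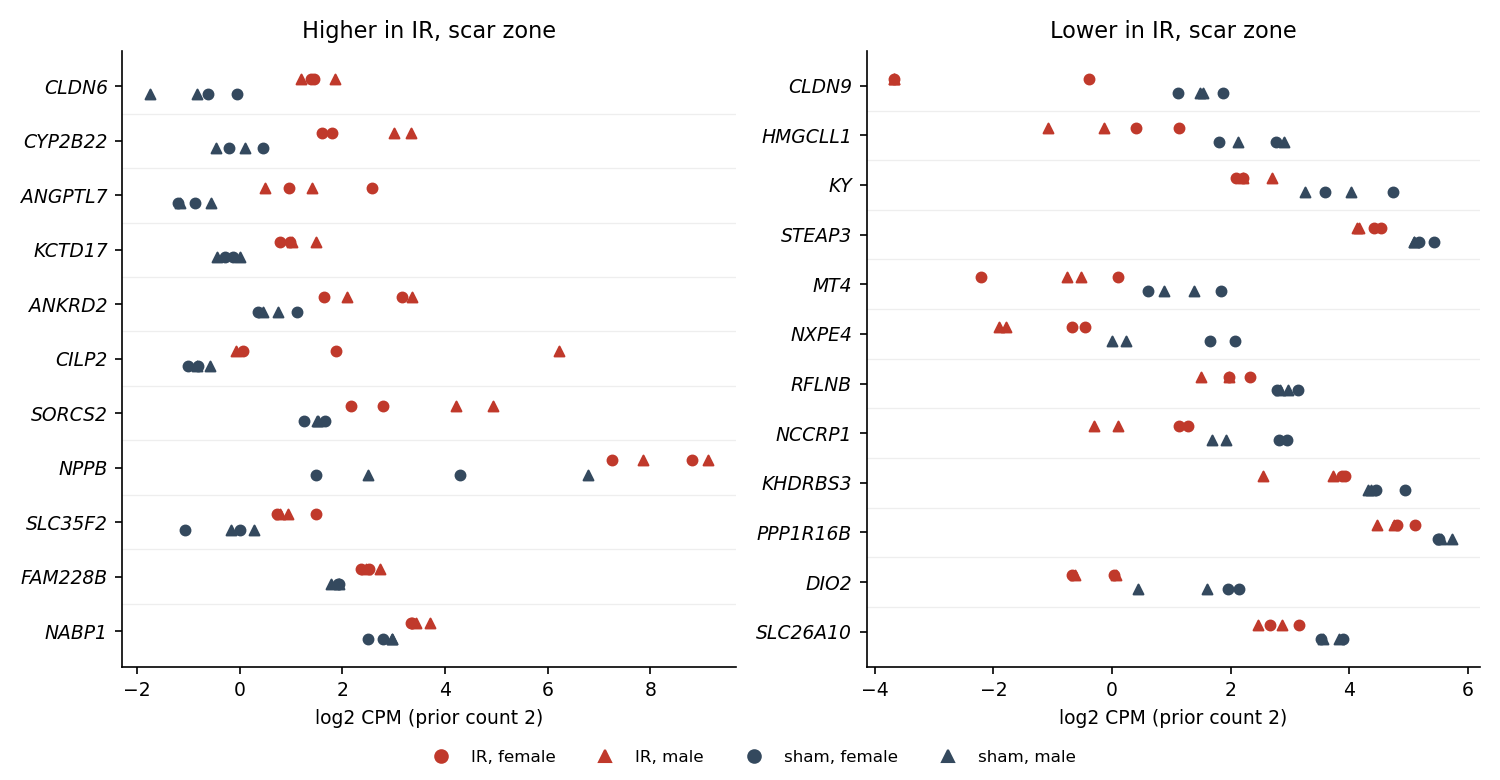
Each point is the log2 CPM (prior count 2) of one pig in the scar zone, for 11 of the 12 genes with the widest gap among those higher in IR (left) and all 12 among those lower in IR (right). Red points are IR and dark points sham pigs, circles females and triangles males. Within each gene the red and dark points do not mix, by the rule that chose the genes, and the widths of the gaps and the spread among pigs differ from gene to gene.

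Of 25 natriuretic and vasoactive genes 1 was higher (4%), *NPPB*, and 2 were lower (8%), small counts beside 2.06% and 2.76% of all genes. The lower genes were *EDNRA* (-0.34 ± 0.14), an endothelin receptor, and *GRK5* (-0.25 ± 0.12), a receptor kinase, and both overlapped in TPM. When 1 pig was left out, the log2 fold change of *EDNRA* ranged from -0.41 to -0.20. *NPPB* encodes B-type natriuretic peptide, which stretched cardiomyocytes release. Its CPM were 449, 153, 232 and 556 in IR pigs and 19.5, 2.74, 5.59 and 110.4 in sham pigs. The log2 fold change was 3.33 ± 1.04, the sham pigs spread over a wide range, and leaving out sham pig 13 moved it to 5.23. The related *NPPA*, atrial natriuretic peptide, had 319.7, 19.7, 318 and 147 CPM in IR pigs and 36.5, 12.9, 0.585 and 49.5 CPM in sham pigs. Here the groups overlapped because the value of IR pig 14 lay among the sham values. *ANKRD2*, an ankyrin repeat protein of striated muscle that responds to stretch, had 8.82, 3.03, 4.15 and 10.2 CPM in IR and 1.21, 2.07, 1.28 and 1.61 CPM in sham pigs (2.09 ± 0.41). *ANKRD1*, its cardiac relative, had 2810 to 5377 CPM in IR and 1641 to 2527 CPM in sham pigs (0.81 ± 0.25). Both muscle ankyrin repeat genes were thus without overlap, at very different levels.

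Other higher genes encode enzymes, secreted proteins and receptors. *CYP2B22*, a cytochrome P450, had 3.41, 2.96, 9.98 and 7.91 CPM in IR and 0.789, 1.28, 0.987 and 0.642 CPM in sham pigs (2.72 ± 0.45). Its highest values were those of the male IR pigs. *ANGPTL7*, a secreted angiopoietin-like protein, had 5.88, 1.86, 2.56 and 1.33 CPM in IR and 0.353 to 0.602 CPM in sham pigs (2.68 ± 0.50). *SORCS2*, a sortilin-family receptor, had 6.82, 4.4, 30.4 and 18.4 CPM against 2.3 to 3.06 CPM (2.47 ± 0.54), with the male IR pigs highest. *CILP2*, a cartilage matrix protein, owed its log2 fold change of 5.33 (SE 1.5) to 1 animal. Pig 9 had 74.2 CPM and the other IR pigs 3.59, 0.963 and 0.875 CPM, against 0.417 to 0.585 CPM in sham pigs, and without pig 9 the log2 fold change was 1.84. *KCTD17*, *SLC35F2*, *FAM228B* and *NABP1* were also among the 12, with log2 fold changes from 0.64 to 1.38.

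The gene with the widest gap in each direction was a claudin, a tight junction protein, and the pair must be read together. *CLDN6* had 2.65, 2.55, 2.2 and 3.56 CPM in IR and 0.881, 0.574, 0.219 and 0.482 CPM in sham pigs. *CLDN9* had 0, 0.688, 0 and 0 CPM in IR and 3.57, 2.07, 2.71 and 2.81 CPM in sham pigs. The genes are neighbours in the Sscrofa11.1 gene table and close paralogs, and reads that fit both are divided between them. Their summed CPM were 2.65, 3.23, 2.2 and 3.56 in IR and 4.45, 2.65, 2.92 and 3.29 in sham pigs, which overlapped. *CLDN6* held between 78.9% and 100% of the summed counts in IR and between 8.02% and 21.5% in sham pigs. These shares rest on 45 to 118 counts in each library. *TNFRSF12A*, the receptor of the cytokine TWEAK and the neighbour on the other side of *CLDN6*, was also without overlap, with 103, 79.9, 58.7 and 133 CPM in IR and 39.3, 26.6, 39.2 and 57.1 CPM in sham pigs (chosen after its values were seen).

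Among the genes lower in IR, several act in metabolism and hormone activation. *STEAP3*, a metalloreductase of iron uptake, had the smallest SE of the 12. Its CPM were 23.0, 21.4, 17.8 and 17.5 in IR and 36.0, 43.0, 34.1 and 34.0 in sham pigs (-0.89 ± 0.14). *HMGCLL1*, a lyase that forms ketone bodies, had 2.12, 1.24, 0.83 and 0.392 CPM against 3.43, 6.75, 4.28 and 7.34 CPM (-2.30 ± 0.48). *DIO2*, the deiodinase that converts thyroxine to active thyroid hormone, had 0.941, 0.55, 0.569 and 0.966 CPM against 3.8, 4.33, 1.28 and 2.97 CPM (-2.02 ± 0.41). *MT4*, a metallothionein, had 0.138 to 1 CPM in IR and 1.44 to 3.49 CPM in sham pigs, a difference of -2.0 ± 0.49 on the log2 scale. Of these, *HMGCLL1*, *DIO2* and *MT4* are low genes, measured with few counts.

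The other lower genes include some of muscle and signalling. *KY*, a protein of the muscle Z-disc region, had 4.18, 4.54, 6.38 and 4.53 CPM in IR and 12, 26.5, 16.3 and 9.51 CPM in sham pigs (-1.70 ± 0.31), but the groups overlapped in TPM. *PPP1R16B*, a regulatory subunit of protein phosphatase 1, had 27.9, 34.5, 26.9 and 22.1 CPM against 45.2, 45.6, 53 and 46.9 CPM (-0.78 ± 0.14). *KHDRBS3*, an RNA-binding splicing regulator, had 14.6, 15.1, 13.1 and 5.77 CPM against 30.5, 21.7, 19.8 and 20.5 CPM. *RFLNB*, a filamin-binding protein, had 2.75 to 4.94 CPM against 6.82 to 8.7 CPM (-0.98 ± 0.21). *NXPE4*, *NCCRP1* and *SLC26A10* completed the 12, with log2 fold changes of -2.63, -1.83 and -0.91.

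The 28 gene lists, which cover the sarcomere, metabolism, stress, signalling and the cell types of the heart, were read against the 2.06% higher and 2.76% lower of all genes tested. In 13 lists no member was without overlap, among them calcium handling, oxidative phosphorylation and the citric acid cycle, glycolysis, heat shock, clock, immediate-early and mural cell genes. Counts of this size in short lists move in large steps, and shares are given as descriptions with no test. The lists were chosen with earlier results of these data known, so the shares of all genes are no neutral yardstick for them.

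**Figure D2:**
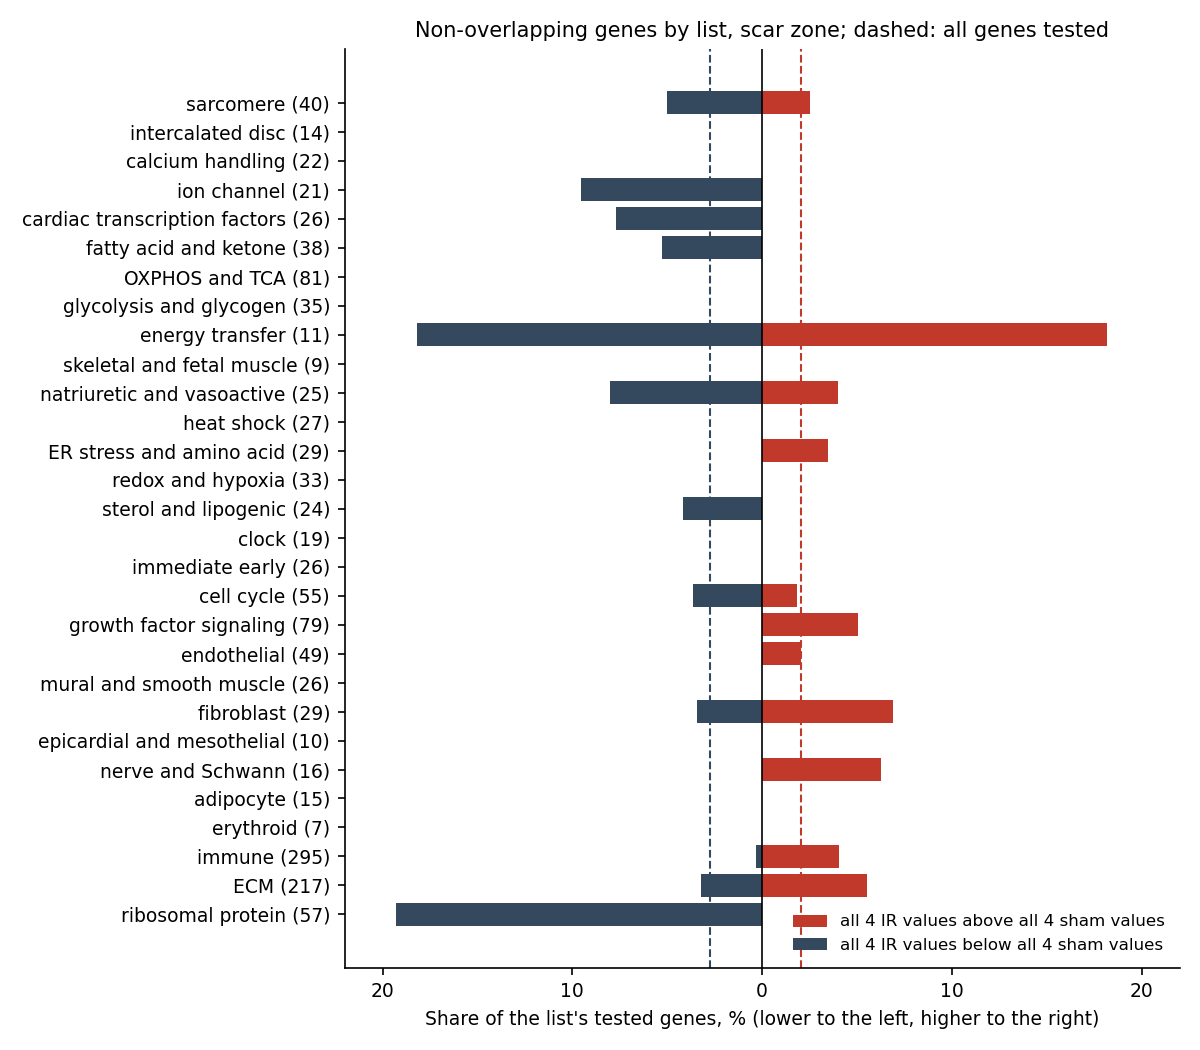
Bars give the percentage of each list's tested genes (number in brackets) whose 4 IR values all lay above (red, to the right) or below (dark, to the left) the 4 sham values in CPM. Dashed lines mark the 2.06% higher and 2.76% lower of all 14023 genes tested. The longest bars are those of the 11 energy transfer genes, with 2 genes in each direction, and of the 57 ribosomal protein genes, a list chosen after the data were seen, with 11 lower genes.

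Of 40 sarcomere genes, 1 was higher (2.5%) and 2 were lower (5%), beside 2.06% and 2.76% of all genes, with a list median log2 fold change of -0.16. *MYH7*, the main ventricular myosin heavy chain, had 37664 to 44413 CPM in IR and 36326 to 55332 CPM in sham pigs, with a log2 fold change of 0.00 ± 0.21. *MYOM3*, a myomesin of the sarcomeric M-band, had 369, 287, 225 and 271 CPM in IR and 449, 598, 479 and 402 CPM in sham pigs (-0.74 ± 0.18), without overlap in TPM as well. *UNC45B*, a myosin chaperone, differed by less, at 153 to 178 CPM against 180.3 to 202 CPM, and overlapped in TPM. *ACTC1*, cardiac actin, overlapped, with 2244 CPM in pig 9 and 4333 to 7921 CPM in the other IR pigs, where sham pigs had 6400.2 to 7827 CPM.

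In each of the lists of ion channel, cardiac transcription factor, and fatty acid and ketone genes 2 members were lower and 0 higher, small counts beside the 2.76% lower and 2.06% higher of all genes. Of 21 ion channel genes 2 were lower. *KCNJ2*, which carries the inward rectifier potassium current, had 64.5 to 78.4 CPM in IR and 85 to 109 CPM in sham pigs (-0.42 ± 0.12). Of 26 cardiac transcription factor genes 2 were lower: *PPARGC1B*, a coactivator of mitochondrial genes, with 10.6 to 26.3 CPM against 27.4 to 34.3 CPM (-0.84 ± 0.24), and *HAND2*, a factor of heart development (-0.80 ± 0.21). Of 38 fatty acid and ketone genes 2 were lower, *ECI1* and *ECI2*, both enoyl-CoA isomerases needed for oxidation of unsaturated fatty acids. *ECI2* had 183, 175, 119.5 and 120.3 CPM in IR and 259, 289, 204 and 220.0 CPM in sham pigs (-0.70 ± 0.18). *PPARGC1B*, *ECI1* and *ECI2* stayed without overlap in TPM, whereas *KCNJ2* and *HAND2* did not. *CPT1B*, the mitochondrial carnitine palmitoyltransferase of muscle, overlapped, with a log2 fold change of -0.11 ± 0.16.

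Energy transfer genes were split between directions, with 2 higher and 2 lower of 11, or 18.2% each, small counts beside 2.06% and 2.76% of all genes. *CKB*, brain-type creatine kinase, had 152, 33, 65.9 and 31.9 CPM in IR and 20, 13.5, 18.4 and 27.1 CPM in sham pigs (1.84 ± 0.49). Its log2 fold change ranged from 1.14 to 2.08 when 1 pig was left out. *AK4*, a mitochondrial adenylate kinase, had 7.02 to 12 CPM against 5.34 to 6.87 CPM. *AK1*, the cytosolic adenylate kinase, was lower (55.2 to 109 CPM against 113 to 173 CPM), as was *COQ8A*, a factor of coenzyme Q synthesis (173 to 339 CPM against 349.6 to 529 CPM). Of these 4 genes only *CKB* was also without overlap in TPM. Of 81 genes of oxidative phosphorylation and the citric acid cycle none separated the groups, although 79 had a negative log2 fold change and the list median was -0.27, against 0.03 over all genes. The 22 calcium handling genes had a median of -0.29. *ATP2A2*, the calcium pump of the sarcoplasmic reticulum, had 2554 to 3808 CPM in IR and 3351 to 4561 CPM in sham pigs (-0.36 ± 0.19).

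Of 79 growth factor genes 4 were higher and 0 lower without overlap, beside 2.06% higher and 2.76% lower of all genes, and 23 of the 79 had a negative log2 fold change. *FRZB*, a secreted Wnt antagonist, had 343, 202, 409 and 405 CPM in IR and 15.2, 56.5, 33 and 158 CPM in sham pigs (2.37 ± 0.62). *INHBA*, the activin A subunit, had 2.88, 3.58, 11.9 and 42 CPM against 1.86 to 2.78 CPM, and its log2 fold change was 2.65, or 1.35 without pig 11. *CHRD*, chordin, a BMP antagonist, and *HBEGF*, a ligand of the EGF receptor, had log2 fold changes of 0.81 and 0.80. When 1 pig was left out, these ranged from 0.59 to 0.96 and from 0.35 to 0.95. For *HBEGF*, IR pig 11 had 27.8 CPM and the other IR pigs 10.1 to 12.7 CPM. Of 55 cell cycle genes 1 was higher and 2 were lower. *CDKN1A*, the cell cycle inhibitor p21, had 17.4, 10.9, 46.3 and 43 CPM in IR and 6.4 to 10.3 CPM in sham pigs (1.87 ± 0.43). The lower genes, *CDKN1C*, the cell cycle inhibitor p57 (-0.66 ± 0.23), and *CCNE2*, a cyclin (-0.24 ± 0.21), overlapped in TPM. When 1 pig was left out, their log2 fold changes ranged from -0.79 to -0.41 and from -0.28 to -0.15. *XBP1*, a transcription factor of the unfolded protein response, had 92 to 154 CPM against 71.2 to 88.1 CPM (0.52 ± 0.18), and *ESM1*, a proteoglycan of endothelial tip cells, 4.54 to 6.43 CPM against 2.12 to 3.73 CPM (0.93 ± 0.23). Of 29 ER stress and amino acid genes 26 had a positive log2 fold change, with a median of 0.30 that was 0.62 in males and -0.03 in females.

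Fibroblast genes had the highest median log2 fold change of the 28 lists, 0.90. Yet 2 of 29 were higher without overlap (6.9%), *CILP2* and *CTHRC1*, and 1 was lower (3.45%), *MEOX2*, beside 2.06% and 2.76% of all genes. *CTHRC1* and *MEOX2* overlapped in TPM. The fibroblast median was 1.49 in males and -0.16 in females, and that of the ECM list 0.94 and -0.13. Over all 8 pigs the ECM list had a median of 0.60, with 12 of 217 genes higher and 7 lower, and the immune list one of 0.56 (0.85 in males and 0.13 in females), with 12 of 295 higher and 1 lower (*CCR10*, a chemokine receptor). *FMOD*, fibromodulin, a collagen-binding proteoglycan, had 73.4, 38.1, 639.6 and 402 CPM in IR and 24.4, 32, 33.7 and 34.1 CPM in sham pigs. *COL8A2*, *COL6A5*, *LAMA3*, *OLFML2B* and *FBN2* were the other higher ECM genes with the widest gaps, and *COL6A5* overlapped in TPM. Among the lower ECM genes, *COL15A1*, a collagen of basement membrane zones, had 334, 354, 271 and 235 CPM in IR and 391, 485, 389 and 427 CPM in sham pigs (-0.50 ± 0.16), but overlapped in TPM. The fibrillar collagen gene *COL1A1* overlapped between the groups, with 1533, 914, 5749 and 9610 CPM in IR and 1451, 1242, 918 and 976 CPM in sham pigs. *RGS1*, *TAPBP*, *SKAP1* and *MARCO* were the immune genes with the widest gaps, of which *TAPBP* and *SKAP1* overlapped in TPM, as did *CCR10*. *PTPRC*, the pan-leucocyte gene CD45, overlapped (0.43 ± 0.37).

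Ribosomal protein genes were noticed among the lower genes after the values were seen. Of 57 tested, 54 had a negative log2 fold change and 11 (19.3%) were lower without overlap in CPM, beside 2.76% of all genes. Examples were *RPS9* (233 to 258 CPM in IR and 261 to 435 CPM in sham pigs) and *RPL13* (191 to 219.9 CPM and 227 to 311 CPM). In TPM none of the 57 was without overlap. The list median was -0.16 here and -0.18 in border zone samples.

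For many genes the male and female IR pigs differed from each other. With IR and sham compared within each sex in one fit of the 8 samples, a contrast chosen after the data were seen, 448 genes (3.19%) rose and 145 (1.03%) fell in males by 2-fold or more with an edgeR adjusted p-value no greater than 0.05. In females 1 gene rose (0.00713%), the unnamed ENSSSCG00000034846, and 0 fell (0%). At the unadjusted p-value the numbers were 958 and 284 in males and 241 and 185 in females. The difference between the sexes was tested as an interaction, which called 210 genes, 156 with a larger log2 fold change in males (1.11%) and 54 with a smaller one (0.385%). Each sex held 2 pigs per group, and leaving out 1 pig leaves its group and sex with 1 pig, which is then assumed to vary like the others. The counts in males became 38 higher and 9 lower without sham pig 12, 74 and 26 without sham pig 13, and 270 and 106 without IR pig 11. The interaction called 1 gene without sham pig 12 or without sham pig 13, 29 without sham pig 4, 52 without sham pig 5, and between 40 and 160 without any one IR pig, the 40 being without pig 14. With 2 pigs, sex cannot be told apart from the animals themselves, and the male IR libraries were also the deepest.

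**Figure D3:**
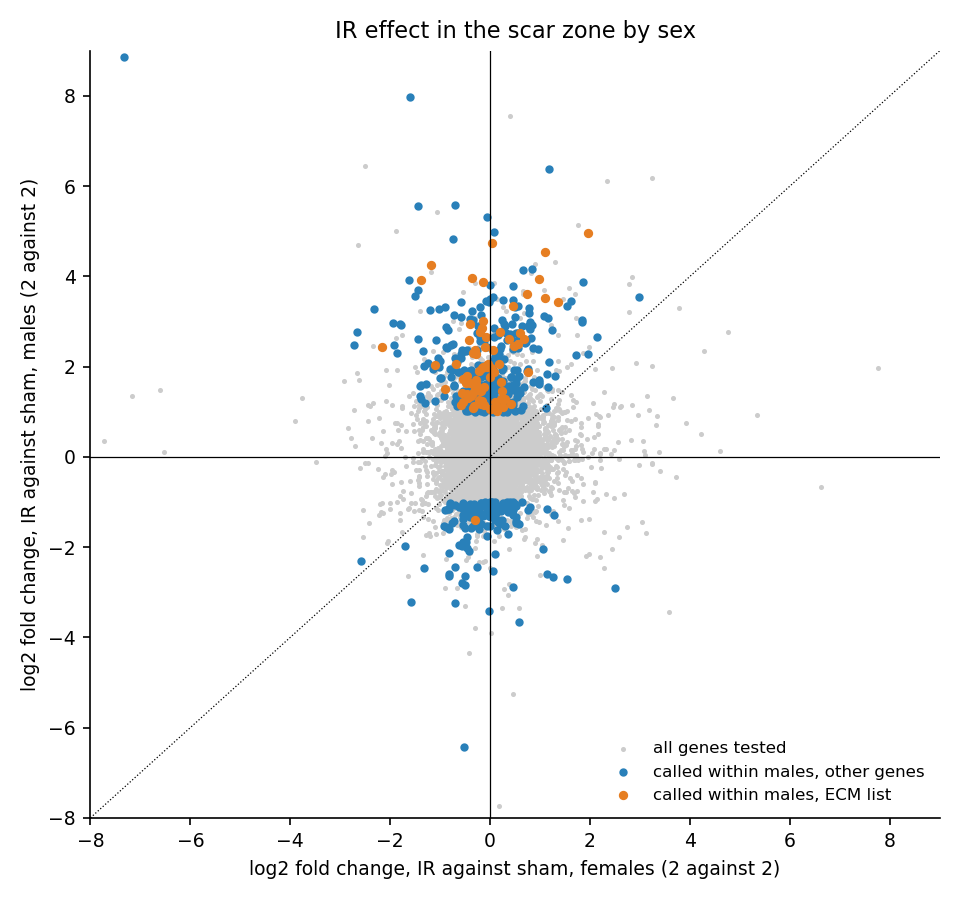
Each point is a gene tested in the scar zone, with its log2 fold change of IR against sham in females on the horizontal axis and in males on the vertical axis. Blue and orange points passed the edgeR test within males (448 higher and 145 lower), orange ones being on the ECM list, the dotted line marks equal changes, and 5 genes lie outside the drawn range. The coloured points were chosen by their position on the male axis, and on the female axis they lie on both sides of 0, with 197 of the 448 higher genes above it.

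Within males, 82 of 217 ECM genes tested rose (37.8%, against 3.19% of all genes) and 1 fell, *MMP11*, and 39 of the list were called for a larger effect in males, where 1.11% of all genes were. *COL1A1* had a log2 fold change of 3.02 in males and -0.14 in females, with an adjusted p-value of the difference of 0.0229 (edgeR). *COL3A1*, its partner in scar fibrils, had 12557 CPM in pig 9 and 14014 CPM in pig 11, with 2259 to 4154 CPM in the other 6 pigs. *FN1*, fibronectin, had 1807 and 1414 CPM in these pigs and 169.9 to 259 CPM in the other 6. *FMOD* and *OLFML2B* had log2 fold changes of 3.94 and 2.77 in males and 0.99 and 0.20 in females (adjusted p-values of the difference, edgeR, 0.0353 and 0.00629). Of 29 fibroblast genes 12 rose in males, among them *THY1*, *PRRX1* and *FAP*, and 5 were called for the difference. *PRRX1*, a mesenchymal transcription factor, had 49.2 and 43.4 CPM in male IR pigs and 9.65 to 13.2 CPM in the other 6 pigs. *SFRP2*, a secreted Wnt modulator, had 73.5 and 237 CPM in male IR pigs and at most 0.642 CPM in all others. The summed fibroblast markers given above moved with these genes, and their part in the result was not tested.

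Of 295 immune genes 41 rose in males (13.9%, against 3.19% of all genes), while 3 were called for a larger effect in males, a share near the 1.11% of all genes. *C3*, the central complement component, stood at 299 and 236 CPM in male IR pigs, 33.6 and 66.5 CPM in female IR pigs and 43.6 to 93 CPM in sham pigs.

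Among the lists of cardiomyocyte genes, 0 of 40 sarcomere, 22 calcium handling, 21 ion channel, 14 intercalated disc and 11 energy transfer genes fell in males. In other lists 3 of 26 cardiac transcription factor genes fell, and 2 of 81 genes of oxidative phosphorylation and the citric acid cycle. So did 1 of 38 fatty acid and ketone genes and 1 of 35 glycolysis and glycogen genes, beside 1.03% of all genes. The male IR pigs with these lower values were those with the highest summed fibroblast markers, 7232 and 11834 CPM, and had summed cardiomyocyte markers of 60864 and 75087 CPM, and the part of these in the falls was not tested. *SLC2A4*, the insulin-responsive glucose transporter GLUT4, had 94.5 and 58.9 CPM in male IR pigs, 209 and 189 CPM in female IR pigs and 173 to 229 CPM in sham pigs. *PLIN5*, a lipid droplet protein, had 1.64 and 1.03 CPM in male IR pigs against 5.01 to 16.6 CPM in all others. *COX6A2*, the muscle subunit of cytochrome c oxidase, had 137 and 159.9 CPM against 309 to 378 CPM, and *ESRRB*, an estrogen-related nuclear receptor, 11.7 and 10.9 CPM against 19.6 to 28.5 CPM. *CCK*, cholecystokinin, had 42.5 and 34.4 CPM against 194 to 357 CPM. Over the 81 genes of oxidative phosphorylation and the citric acid cycle the median log2 fold change was -0.65 in males and -0.01 in females. Of these 81 genes, 3 were called for a smaller log2 fold change in males than in females, where 0.385% of all genes were. *MYH7* had log2 fold changes of 0.13 in males and -0.11 in females. The genes named for their change in males, other than *COL1A1*, *FMOD*, *OLFML2B* and *MYH7*, were chosen after their values were seen.

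**Figure D4:**
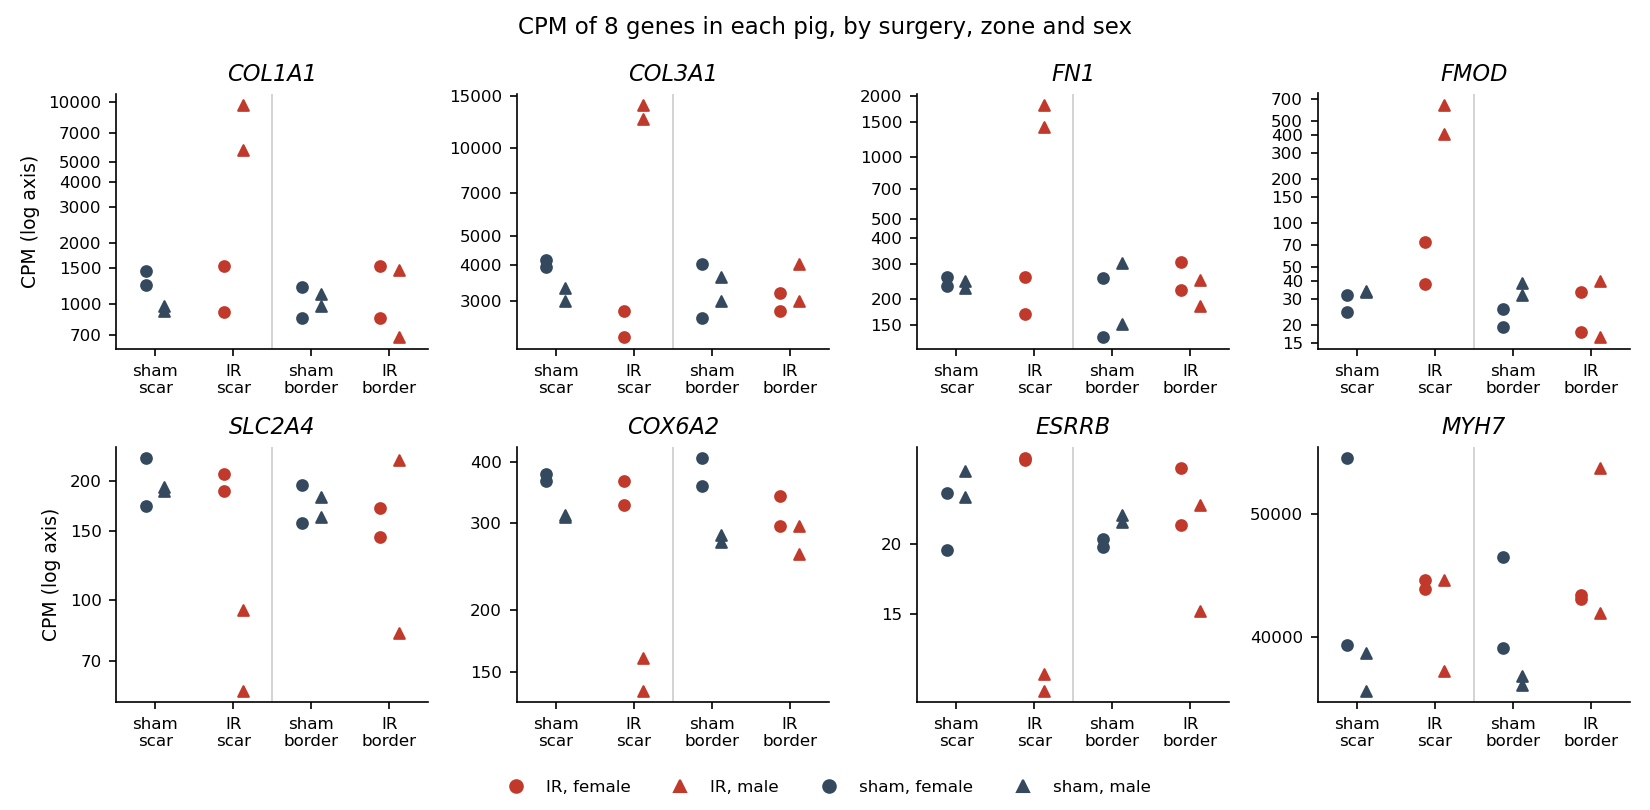
CPM of 8 genes on log axes, one point per pig and zone, with scar and border zone values scaled within their own zone. Red points are IR and dark points sham pigs, circles females and triangles males. In the scar zone of the matrix genes *COL1A1*, *COL3A1*, *FN1* and *FMOD* the 2 male IR pigs lie above all other pigs, and for *SLC2A4*, *COX6A2* and *ESRRB* below them, while in the border zone the IR and sham values of the matrix genes overlap and *MYH7* overlaps in both zones.

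In the border zone the same comparison gave 119 genes higher (0.867% of 13728 tested) and 172 lower (1.25%) without overlap. edgeR called 0 genes at the adjusted and 109 at the unadjusted p-value, and DESeq2 called 1 higher and 1 lower. Within males edgeR called 0 border zone genes (0%), with 141 higher and 130 lower at the unadjusted p-value, and within females 1 higher and 0 lower, with 188 and 105 unadjusted. The ECM list had a border zone median of 0.01 and the fibroblast list of 0.05, against 0.60 and 0.90 in the scar zone, while the immune list had 0.27 against 0.56. The IR effect was compared between zones over all 16 samples. edgeR called 0 genes for the difference at the adjusted p-value, with or without the pig as a block (smallest adjusted p-value 0.702 with the block). At the unadjusted threshold 196 genes passed, 189 with a larger log2 fold change of IR against sham in the scar zone and 7 with a smaller one. This test pooled the sexes, and the zones were not compared within males, where the ECM list had a median log2 fold change of 0.94 in the scar and -0.13 in the border zone.

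Some genes were without overlap in both zones, 11 of the 270 higher genes that could be tested in the border zone (4.07%, against 0.867% of all border zone genes) and 23 of the 384 such lower genes (5.99%, against 1.25%), and both zones came from the same pigs. Of the 12 lower genes with the widest gap, *STEAP3*, *RFLNB* and *PPP1R16B* were among them. Of the 12 higher genes 11 could be tested in the border zone, all but *CILP2*, and none of these was among them. The border zone log2 fold change of *STEAP3* was -0.55 ± 0.15, that of *RFLNB* -0.85 ± 0.25 and that of *PPP1R16B* -0.78 ± 0.25. *ANKRD2* had a border zone log2 fold change of 2.25 ± 0.76, close to its scar zone value, but its groups overlapped there. For *CYP2B22*, *CLDN6* and *KCTD17* the border zone values were 0.52 ± 0.50, 0.44 ± 1.18 and -0.21 ± 0.35.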

How the data were processed

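Polyadenylated RNA of 16 samples from 8 pigs had been sequenced. The authors used Trimmomatic 0.33, HISAT2 2.0.5 and kallisto 0.43.1 (versions per the submitters' processing notes), with an index of Ensembl pig cDNA; the genome build is not given in the sources used here. They deposited estimated counts, which kallisto divides among similar transcripts, and TPM, which also corrects for transcript length. The tables each list 22629 genes, 15095 by symbol; 889 of 7534 Ensembl IDs were given a symbol from the name table and 6645 stayed unnamed. No 2 samples were identical.

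Counts were rounded to whole numbers and tested in R 4.3.3 with edgeR 4.0.16 (TMM, filterByExpr with a minimum count of 10 and a minimum total of 15, quasi-likelihood test, with p-values adjusted by Benjamini-Hochberg across every gene that passed the filter). Genes were called where the adjusted p-value did not exceed 0.05 and the fold change was 2 or more. Each SE is the absolute log2 fold change divided by the square root of the F statistic of the quasi-likelihood test. Overlap was read in TMM-scaled CPM; log2 CPM used a prior count of 2. Groups came from the labels, and pigs are separate animals. The scar and border zone samples of a pig are paired by animal: their deviations from the group means correlated at r = 0.354 to 0.692 over 14278 genes, so zones were also compared with the pig as a block.

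Genes named were, by rule, the 12 higher and 12 lower with the widest gap outside the immune and ECM lists, the first 4 immune and 6 ECM genes and up to 4 lower ones, the first 4 in every other list, and 13 fixed genes, of which *MYH6* and *MKI67* are not analysed here; others are marked as chosen after their values were seen, and some genes are not reported here. Members and lists were chosen with earlier results of these data known. Alternatives were DESeq2 1.42.0, upper-quartile scaling, library totals, no filter, sex as a covariate, 1 factor of unwanted variation from 5000 genes of large p-value, all 16 samples in one fit, limma 3.58.1 on log2(TPM + 1) and log2(TPM + 0.1) where 4 samples reached a TPM of 1, and leaving out each pig. The tests were checked on simulated counts.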

Additional observations from a re-analysis of the deposited data

Results flagged for a closer look

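The effect of IR in the scar zone differed between the sexes for 210 genes by the interaction test of edgeR. Of the genes named by rule, *FMOD*, *OLFML2B* and *COL1A1* were among them, with log2 fold changes larger by 2.96, 2.58 and 3.16 in males than in females. These rest on 2 pigs of each sex in each group and fall to 1 called gene without sham pig 12 or without sham pig 13, where the male sham group is 1 pig assumed to vary like the others.

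In 8 of 154 groups of 4 pigs, 1 pig lay far from the other 3 by Dixon's criterion, where chance alone flags about 5%. For *CLDN9* IR pig 14 had 0.688 CPM and the other IR pigs 0, and for *KHDRBS3* IR pig 11 had 5.77 CPM against 13.1 to 15.1. For *ANKRD1* IR pig 11 had 5377 CPM against 2810 to 3071, and for *UNC45B* IR pig 2 had 178 CPM against 153 to 155. For *MYH7* IR pig 9 had 37664 CPM, the lowest of its group. For *PECAM1*, an endothelial adhesion molecule, IR pig 14 had 413 CPM against 287 to 294, and sham pig 5 had 475 CPM against 355 to 368. For *FAM228B* sham pig 13 had 3.33 CPM against 3.71 to 3.75.

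The scar zone library of pig 14, labelled female, held 4.49 CPM (65.6 estimated counts) of *DDX3Y* and 6 counts of the Y-linked *KDM5D*, which was at 0 in the other 7 female libraries. The level of *DDX3Y* was above the 0.389 to 1.23 CPM of those libraries and below the lowest male library, 68.4 CPM.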

How the results depend on the processing

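The pooled count of 0 called genes (edgeR) became 37 higher and 15 lower by DESeq2, 2 and 1 by limma on log2(TPM + 1), 1 higher on log2(TPM + 0.1), 1 higher within females, and 448 and 145 within males. At the unadjusted p-value with a 2-fold change, the 384 higher and 86 lower genes became 647 and 231 with no filter on low counts, 127 and 21 on log2(TPM + 1), 201 and 38 on log2(TPM + 0.1), and 922 and 650 with no fold threshold, and 250 were higher with 1 factor of unwanted variation. Leaving out 1 pig gave 214 to 686 higher and 64 to 165 lower. Genes without overlap numbered 479 higher and 88 lower in TPM, and 388 to 914 and 457 to 972 when 1 pig was left out, where fewer values have to separate. The 210 genes of the sex difference became 708 by DESeq2 and 1 to 160 without 1 pig. The male counts became 675 higher and 238 lower by DESeq2, and 38 to 457 and 9 to 155 without 1 pig, with the lowest counts without sham pig 12. The 109 border zone genes at the unadjusted p-value ranged from 69 to 202. For the zone difference, 196 genes passed the unadjusted threshold, and 217 did when the pig entered as a replicate block, which changed no call at the adjusted p-value, and 88 to 366 passed without 1 pig. The log2 fold change of *MYH7* was -0.0107 by DESeq2, -0.000629 with upper-quartile scaling, -0.0171 with no filter, and -0.069 to 0.15 without 1 pig. That of *CPT1B* was 0.0421 and 0.0422 with limma at the pseudocounts 1 and 0.1, that of *RYR2* ranged from -0.0065 to 0.21 without 1 pig, and that of *ACTA2* from -0.0134 to 0.42. Of 1205 values of named genes under an alternative, 1161 kept direction and side of the threshold, which for the genes without overlap is partly fixed by how they were chosen. The causes of these shifts were not tested. With 4 pigs a group and 2 of each sex, the spread among animals limits every comparison, and genes near 1 CPM rest on few counts.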

Other observations

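*ESR1*, the estrogen receptor alpha, was lower in every IR pig than in any sham pig in the scar zone (chosen after its values were seen). It had 0.353, 1.17, 0.877 and 1.12 CPM in IR pigs 2, 14, 9 and 11 and 1.39 to 3.31 CPM in sham pigs, with a log2 fold change of -1.18 ± 0.42, and the groups did not overlap in TPM either. It did not pass the edgeR test (adjusted p-value 0.438) and was not called for a difference between the sexes (0.441). In the border zone its log2 fold change was -0.76 ± 0.48, with overlap, and its level is low in all samples.

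The genes that follow were also chosen after their values were seen. Among the 11 genes higher in every IR pig in both zones were *SSR3* and *SPCS2*, which encode parts of the machinery that moves new proteins into the endoplasmic reticulum and trims their signal peptides. *SSR3* had 51.1 to 66.4 CPM in IR and 34.7 to 43.7 CPM in sham pigs in the scar zone (0.50 ± 0.13), and a border zone log2 fold change of 0.47 ± 0.15. *SPCS2* had 81.3 to 113 CPM against 47.7 to 76.3 CPM (0.62 ± 0.17), and 0.52 ± 0.13 in the border zone. *PLAC8* and *MAPT*, the gene of the microtubule-binding protein tau, were also in this group, with scar zone log2 fold changes of 2.72 and 0.75 and border zone values of 2.35 and 1.16. The unnamed ENSSSCG00000001231 had 45.1 to 88.8 CPM in IR and 6.84 to 20.3 CPM in sham pigs (2.14 ± 0.32), and 2.39 ± 0.37 in the border zone, where its edgeR adjusted p-value of 0.497 was the smallest of all genes. *CNTN2*, a cell adhesion molecule of neurons and of the cardiac conduction system, was lower in every IR pig in both zones, with log2 fold changes of -1.51 ± 0.40 and -1.96 ± 0.59.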
